A study of Mus musculus with 12 samples.

Results

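The ubiquitin-specific proteases (USPs) were read from the gene table as the protein-coding genes whose symbol is Usp followed by a digit. The table of 41708 genes, 20461 of them protein-coding, held 48 such genes, and 2 further rows with a Usp symbol (Usp46os1 and Usp46os2) were not protein-coding and were left out. Of the 48 genes, 40 had enough counts to be tested and 8 did not. The study used fasted mouse liver. All 12 mice were on a C57BL6/J background, carried loxP-flanked Ube4a on both alleles (Ube4a flox/flox) and had gone 16 h without food. The 5 mice called flox here, which the sample titles call WT, are Ube4a flox/flox without a stated Cre. The 7 LKO mice also carried a Cre transgene under the Albumin promoter, which is active in hepatocytes, so Ube4a stays intact in the other cells of the liver. The labels give no age or sex, a group with the Cre transgene alone is not analysed here, and whole liver was the tissue sequenced.

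USPs are cysteine proteases that cut ubiquitin from proteins or shorten ubiquitin chains, and they form the largest family of deubiquitinases. They act against ubiquitin ligases, and Ube4a encodes a ligase of the U-box type that lengthens ubiquitin chains. In liver the family includes enzymes with well-known regulation: Usp2 transcripts follow the circadian clock and glucocorticoids, Usp18 is induced by interferon and removes the ubiquitin-like protein ISG15, and Usp14 works on the proteasome. The name does not ensure the activity, since Usp6nl encodes a GTPase-activating protein of Rab proteins and Usp39 a splicing factor without protease activity.

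A promoter window of 300 bases, from 250 before to 50 after the annotated start, was found in RefSeq (build GRCm38.p6) for 38 of the 48 genes, with 2 windows for Usp6nl. The 5 windows below belong to the genes whose values are described most closely: the most abundant USP (Usp47), the clock-linked Usp2, the gene with the smallest p-value (Usp54), and the overlapping pair Usp8 and Usp50. Each is given 5′ to 3′ along the strand of its gene, and capitals mark CG dinucleotides.
Usp47, chr7:112023256-112023555, plus strand: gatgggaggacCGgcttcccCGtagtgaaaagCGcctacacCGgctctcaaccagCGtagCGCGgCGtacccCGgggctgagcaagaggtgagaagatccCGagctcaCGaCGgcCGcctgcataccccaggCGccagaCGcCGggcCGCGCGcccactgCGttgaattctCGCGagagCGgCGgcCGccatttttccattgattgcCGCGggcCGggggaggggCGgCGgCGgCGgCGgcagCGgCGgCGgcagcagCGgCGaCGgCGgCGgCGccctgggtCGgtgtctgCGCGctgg
Usp2, chr9:44084670-44084969, plus strand: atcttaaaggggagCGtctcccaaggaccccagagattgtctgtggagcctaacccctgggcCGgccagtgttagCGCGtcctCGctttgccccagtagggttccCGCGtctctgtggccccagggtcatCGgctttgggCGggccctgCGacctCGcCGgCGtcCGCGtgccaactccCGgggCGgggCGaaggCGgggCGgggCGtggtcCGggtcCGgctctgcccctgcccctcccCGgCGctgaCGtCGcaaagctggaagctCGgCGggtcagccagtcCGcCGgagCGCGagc
Usp54, chr14:20618305-20618604, minus strand: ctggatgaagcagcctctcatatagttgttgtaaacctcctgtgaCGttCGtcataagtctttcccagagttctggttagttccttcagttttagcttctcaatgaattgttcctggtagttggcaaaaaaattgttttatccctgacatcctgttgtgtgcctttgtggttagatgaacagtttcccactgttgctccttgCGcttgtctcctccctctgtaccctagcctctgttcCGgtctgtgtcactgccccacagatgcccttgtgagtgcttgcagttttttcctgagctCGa
Usp8, chr2:126707078-126707377, plus strand: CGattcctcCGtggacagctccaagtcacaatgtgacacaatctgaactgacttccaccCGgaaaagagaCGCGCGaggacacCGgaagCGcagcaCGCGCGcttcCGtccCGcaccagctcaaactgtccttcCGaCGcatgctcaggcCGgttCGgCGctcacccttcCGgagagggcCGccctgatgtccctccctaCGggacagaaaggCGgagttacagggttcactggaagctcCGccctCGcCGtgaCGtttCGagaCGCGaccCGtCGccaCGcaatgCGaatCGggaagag
Usp50, chr2:126783411-126783710, minus strand: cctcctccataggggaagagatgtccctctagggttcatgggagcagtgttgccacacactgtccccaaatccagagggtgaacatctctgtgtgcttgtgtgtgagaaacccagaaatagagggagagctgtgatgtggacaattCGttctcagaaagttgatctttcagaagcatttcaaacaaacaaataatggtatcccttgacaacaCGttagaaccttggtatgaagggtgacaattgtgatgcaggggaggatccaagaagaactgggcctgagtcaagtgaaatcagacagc

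The windows of Usp47, Usp8 and Usp2 held 45, 34 and 33 CG dinucleotides, whereas those of Usp54 and Usp50 held 5 and 2. Windows of USP genes that were tested held a median of 30, and 23 of the 33 windows (69.7%) held at least 20. Among the 6 windows of USP genes that were too low to test, the median was 5.5 and 1 (16.7%), that of Usp13, held at least 20. Over all 32851 windows used, the median was 7 and 26.5% held at least 20. A CG-poor window was not limited to low genes, since Usp10, the second most abundant USP, held 8. In the Usp2 window, read on both strands, the E-box CACGTG, bound by clock proteins, the D-box TTATGNAA and the full cAMP response element TGACGTCA gave no match. The share of all windows with a match was 7.2%, 3.4% and 1.8%, respectively. TGACGT, the first 6 letters of the cAMP response element, matched once in the Usp2 window, starting at base 247, against 7.5% of all windows and 7 of the USP windows. The GC box GGGCGG matched 3 times there, and was in 27 USP windows and in 35.7% of all windows. A match is a description of the letters only.

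**Figure D1:**
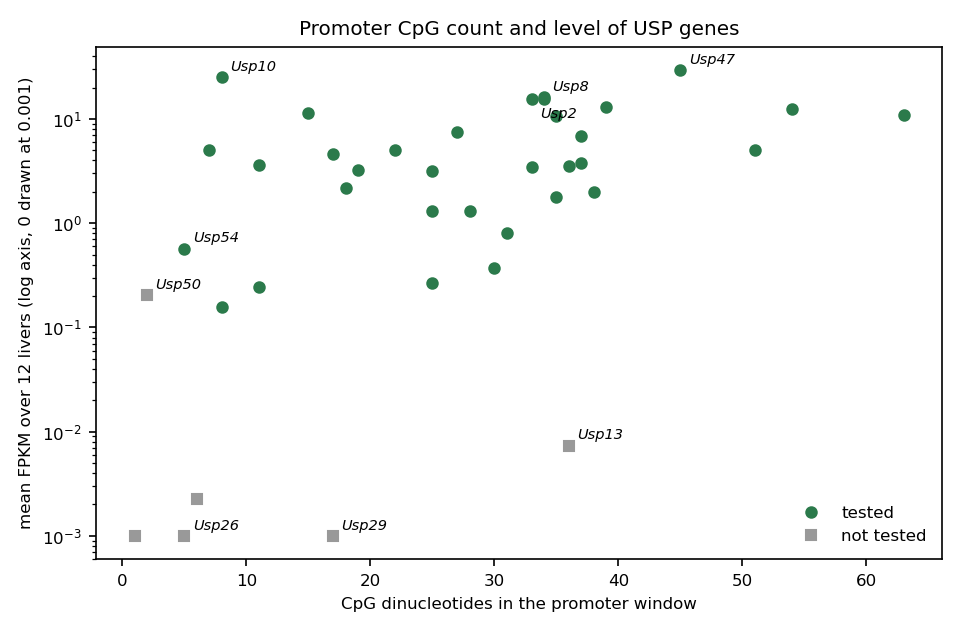
Mean FPKM over the 12 livers (log axis, genes without counts drawn at 0.001) against the number of CG dinucleotides in the 300-base promoter window, one point per window of a USP gene, with tested and untested genes marked. The tested genes spread from 5 to 63 CG dinucleotides, Usp10 and Usp54 sit at 8 and 5, and of the untested genes only Usp13 lies above 20.

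The libraries held 13399874 to 16525053 counts. Ube4a, the targeted gene, lies on chromosome 9 from 44737000 to 44780476 (coordinates of the deposited table). It measured 134 ± 11.6 CPM (library-scaled counts; SD, n = 5; range 120 to 152) in flox and 26.6 ± 3.45 CPM (SD, n = 7; range 23.2 to 34.0) in LKO livers, without overlap (log2 fold change -2.33, standard error (SE) 0.09, adjusted p = 3.44e-09, edgeR; exact permutation p = 0.00253, two-sided). Hepatocyte markers were at 76663 to 109364 CPM in sum in the 12 livers, with 5 of 6 in the table, each with counts in every liver. Flox replicates 4 and 5 stood apart: 8 neutrophil markers summed to 272 and 430 CPM there, against at most 0.839 in the other 3 flox and 0.139 to 1.70 in the LKO livers, and 0 of the 8 had counts in every liver. The 8 macrophage and Kupffer cell markers, all with counts in every liver, summed to 487 and 700 CPM there, against 31.5 to 102 in the other flox and 77.0 to 227 in the LKO livers. Markers of some other cell types were also high in this pair. The 6 sinusoidal endothelial markers were at 222 and 298 CPM (at most 78.8 in the other flox, 55.5 to 185 in the LKO livers). The 6 stellate cell markers were at 231 and 340 CPM (at most 154, and 118 to 212). Erythroid markers, at 35.5 and 43.9 CPM, lay within the range of the other flox (27.4 to 64.4). Cholangiocyte markers, at 44.2 and 49.2 CPM, were above the other flox (at most 40.4) but within the LKO range (38.0 to 62.3). Results that lean on these 2 libraries are given with and without them.

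The liver transcribed a broad set of USPs at moderate levels. Per length, 13 genes averaged at least 10 FPKM (fragments scaled to gene length and library size), 21 averaged 1 to 10, and 14 were under 1. The 40 tested and 8 untested genes together summed to 281.8 ± 13.6 FPKM in flox (SD, n = 5) and 285.7 ± 15.6 in LKO livers (SD, n = 7). They took 0.181% ± 0.0044 and 0.182% ± 0.0096 of all counts, and the ranges of the groups overlapped. LKO replicate 1 had the lowest share, 0.163%, and LKO replicate 6 the highest, 0.192%. In bulk tissue, fewer cells of a type and less RNA per cell cannot be told apart.

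Usp47, which trims ubiquitin from the repair polymerase POLB, led the family in all 12 livers at 29.3 ± 2.32 FPKM (SD, n = 12; range 26.1 to 32.2). Usp10, a deubiquitinase of p53 that binds the stress granule protein G3BP1, came second in all 12 at 25.4 ± 2.15 FPKM (range 20.7 to 28.2). The ranges of Usp47 and Usp10 overlapped, although their order held within every liver. Then followed Usp5, which recycles free ubiquitin chains (16.7 ± 1.43 FPKM), Usp8, an endosomal enzyme (16.3 ± 1.37), Usp15, which acts on TGF-beta receptor signalling (15.6 ± 1.66), and Usp2 (15.5 ± 2.41). These 4 genes changed places between livers, with ranks from 3 to 8, so their order was within the spread. Usp24, Usp25, Usp9x, Usp19, Usp7, Usp14 and Usp4 lay between 10.6 and 13.1 FPKM, each within the spread of its neighbours. The first 5 genes made up 36.4% and the first 13 genes 70.5% of the summed USP level.

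**Figure D2:**
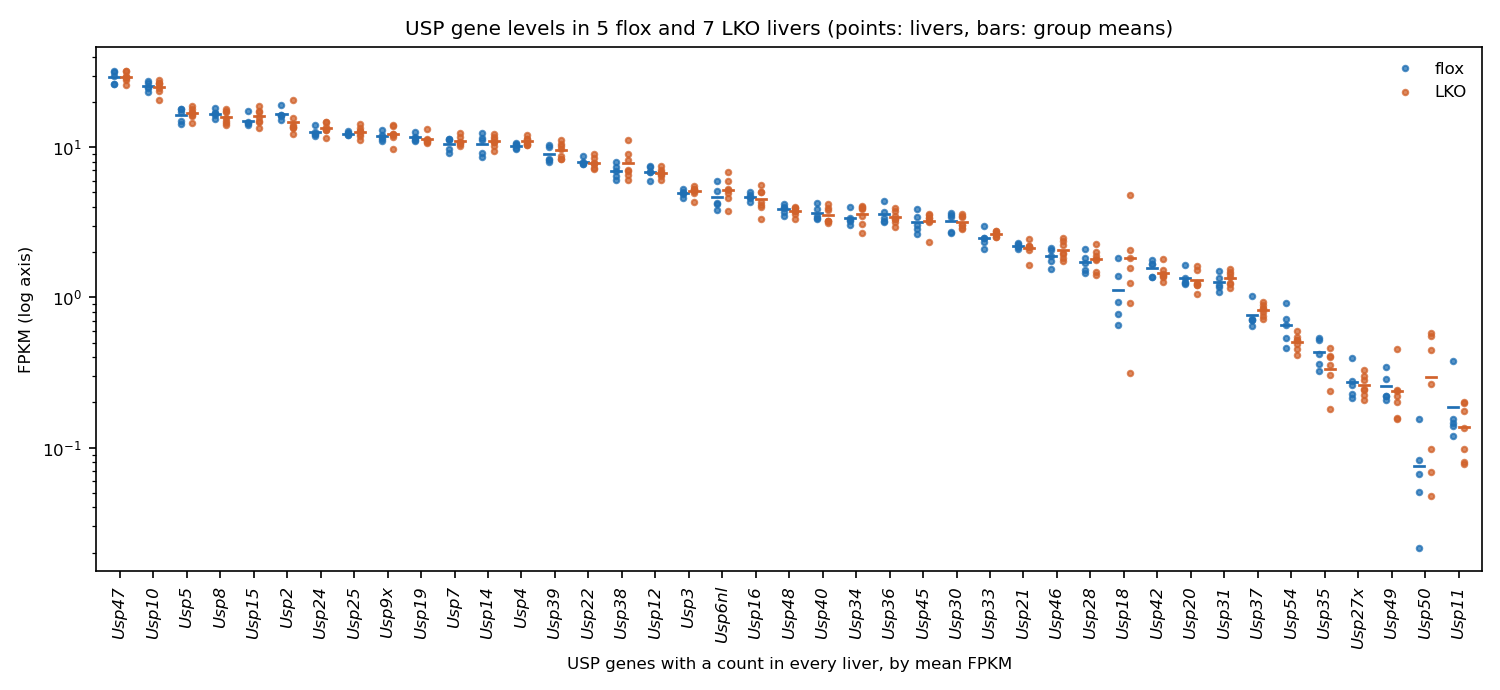
FPKM (log axis) of each USP gene with a count in every liver, ordered by mean. Points are the 5 flox and 7 LKO livers and bars are group means; the groups overlap at every gene, Usp47 and Usp10 lead, and Usp18 and Usp50 have the widest spread.

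Comparing LKO with flox livers asks whether loss of the ligase moved the transcripts of these enzymes. By the quasi-likelihood test of edgeR, with p-values adjusted over 12615 genes after Benjamini and Hochberg, 0 of the 40 tested USP genes passed an adjusted p of 0.05, where 1 gene in all, Ube4a itself, did (0.00793%). The smallest adjusted p of a USP gene was 0.650 and the largest 0.998. At an unadjusted p under 0.05 there was 1 USP gene, Usp54, of 40, against 7.64% of all genes tested. DESeq2 placed 0 USP genes under its adjusted threshold, with a smallest adjusted p of 0.524, and 22 of 11636 genes in all (0.189%). At an unadjusted p under 0.05 it also had 1 USP gene, against 8.82% of all genes. Its adjusted p was not available for Usp27x and Usp11. The flox and LKO ranges of CPM overlapped in all 40 USP genes, where they did not in 61 of all genes tested (0.484%).

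At the median, USP genes had narrower intervals than all genes tested. Of the 40 log2 fold changes, 21 were above and 19 below 0, with a median of 0.03 against -0.01 over all genes tested. Their median size was 0.068 against 0.11. The 95% confidence interval reached a median of 0.21 to either side (0.29 over all genes). It lay within a 1.25-fold change either way for 25 USP genes and within a 1.5-fold change for 35, where 65.3% of all genes met the latter. The 5 genes whose interval went beyond 1.5-fold were Usp18, Usp54, Usp35, Usp49 and Usp11. The coefficient of variation was the SD pooled within the flox and LKO groups over the mean of the 12 livers. It had a median of 11.8% among USP genes and 16.2% among all. Usp4 was the steadiest USP at 5.15% and Usp18 the least steady at 76.2%, among genes with at least 1 CPM. Flox replicates 4 and 5 were the 2 highest livers for 1 USP gene, Usp54, against 11.4% of all genes, and the 2 lowest for 4, against 6.64%.

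**Figure D3:**
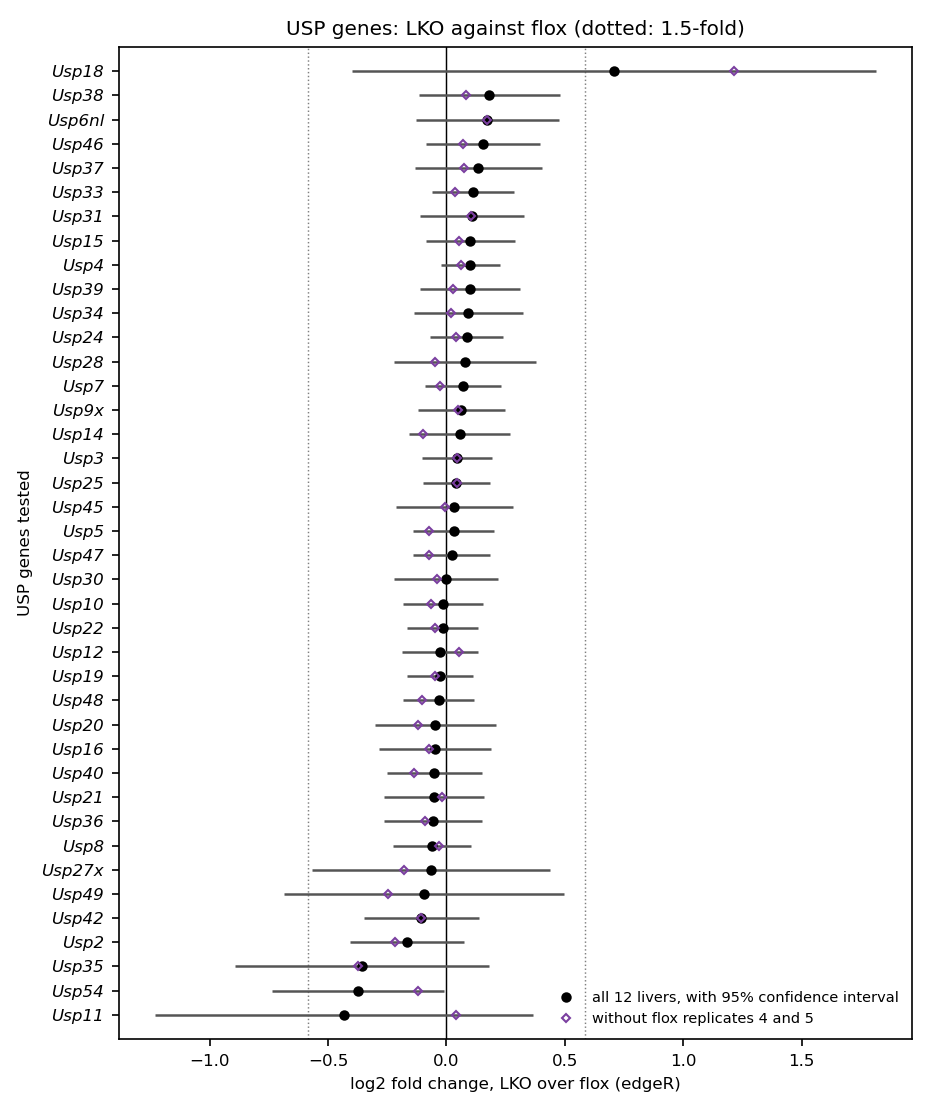
Log2 fold change (LKO over flox, edgeR) of the 40 tested USP genes with 95% confidence intervals, with the estimate without flox replicates 4 and 5 beside it; dotted lines mark 1.5-fold. Most intervals sit inside the dotted lines, Usp18 and Usp11 have the widest, and only that of Usp54 leaves out 0.

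Usp18, which removes ISG15 from proteins and dampens the interferon receptor, had the largest log2 fold change and the widest interval of the 40 tested USP genes. The gene lies on chromosome 6 from 127363332 to 127388255. The flox livers measured 2.16, 2.62, 1.83, 3.87 and 5.12 CPM, and the LKO livers ranged from 0.88 through a median of 4.39 to 13.6. The LKO group held both the lowest liver (replicate 2) and the highest (replicate 1), and the flox values all lay between them. The means were 3.12 ± 1.36 (SD, n = 5) and 5.12 ± 4.07 CPM (SD, n = 7), with a log2 fold change of 0.71 (SE 0.51, 95% confidence interval -0.40 to 1.81, adjusted p = 0.760 in edgeR). Without LKO replicate 1 it was 0.24 (adjusted p = 0.903), without flox replicates 4 and 5 it was 1.22 (adjusted p = 0.926), and limma voom with quality weights gave -0.02 (adjusted p = 0.989). In LKO replicate 1 the summed markers of macrophages (227 CPM), sinusoidal endothelium (185 CPM), stellate cells (212 CPM) and erythroid cells (78.7 CPM) were each the highest among LKO livers, and their part in its Usp18 level was not tested.

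Other genes of the ISG15 system were as uneven between livers. Isg15, the modifier that Usp18 removes, measured 1.202 to 2.34 CPM in flox livers and 1.08, 2.93 and 9.36 CPM (lowest, median, highest) in the LKO group (adjusted p = 0.635). Ifit1, an interferon-induced inhibitor of viral RNA translation, measured 1.41 to 4.02 CPM in flox and 0.745, 4.32 and 13.8 CPM in the LKO group (adjusted p = 0.687). LKO replicate 1 was the highest of the 12 livers for Usp18, Isg15 and Ifit1, and LKO replicate 2 the lowest for Usp18 and Ifit1. Of the 12 tested genes of the ISG15 and interferon list, 0 passed the threshold, 9 had a positive and 3 a negative log2 fold change, and 1 had an unadjusted p under 0.05, against 7.64% of all genes tested. Their median was 0.13, and 0.58 without flox replicates 4 and 5.

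Usp2, which stabilises several clock and metabolic proteins, had a lower LKO than flox mean that was within the spread. It is the USP gene nearest to Ube4a, on chromosome 9 from 43797307 to 43826758 in the table's coordinates, 910241 bases away. The flox livers measured 76.6, 78.7, 91.4, 77.8 and 72.8 CPM, and the LKO livers ranged from 58.8 through a median of 65.5 to 98.6. LKO replicate 4 was the highest of the 12, and the other 6 LKO livers were below the flox mean. The means were 79.5 ± 7.05 (SD, n = 5) and 70.8 ± 13.1 CPM (SD, n = 7), with a log2 fold change of -0.17 (SE 0.11, 95% confidence interval -0.41 to 0.07, adjusted p = 0.735 in edgeR). Without LKO replicate 4 it was -0.27 (adjusted p = 0.700).

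Since Usp2 transcription is known to follow the clock, clock genes are set beside it. Dbp, a clock output transcription factor that binds D-boxes, measured 10.6 to 24.1 CPM in flox and 5.48, 6.91 and 18.2 CPM (lowest, median, highest) in the LKO group (log2 fold change -1.01, adjusted p = 0.615). Flox replicates 4 and 5 were its 2 highest livers, at 23.2 and 24.1 CPM, and the value for Dbp without them was -0.61. Nr1d1, a heme-binding repressor of the clock, measured 10.4 to 20.2 CPM in flox and 4.13, 9.80 and 16.5 CPM in the LKO group (log2 fold change -0.70, adjusted p = 0.635). Flox replicates 4 and 5 were also the 2 highest livers for Nr1d1, at 20.2 and 20.1 CPM, and its value without them was -0.52. LKO replicate 4 was the highest LKO liver for Usp2, Dbp and Nr1d1, and LKO replicate 1 the lowest of all livers for Usp2 and Nr1d1. Of 15 tested clock genes, 0 passed the threshold, and 5 had a positive and 10 a negative log2 fold change. Their median was -0.20, and -0.25 without flox replicates 4 and 5. An unadjusted p under 0.05 (edgeR) was found for 4 of the 15, against 7.64% of all genes tested. Of the 4, Dbp, Tef and Nr1d1 had negative values, and Arntl had a positive value of 0.48 (0.26 without flox replicates 4 and 5). Without flox replicates 4 and 5, the smallest unadjusted p among the 15 was 0.0581, for Tef (edgeR). In that fit 5.27% of all genes tested were under 0.05. In the fasting and glucocorticoid list, 0 of 9 tested genes passed, and 3 were above and 6 below 0. The list had a median of -0.12, and -0.08 without flox replicates 4 and 5. Its smallest p-values belonged to Nr3c1, the glucocorticoid receptor, and Sgk1, a kinase gene it induces, with a smallest adjusted p of 0.701 (edgeR). The log2 fold changes of Nr3c1 and Sgk1 were 0.13 and -0.28, and 0.04 and 0.03 without those 2 livers.

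**Figure D4:**
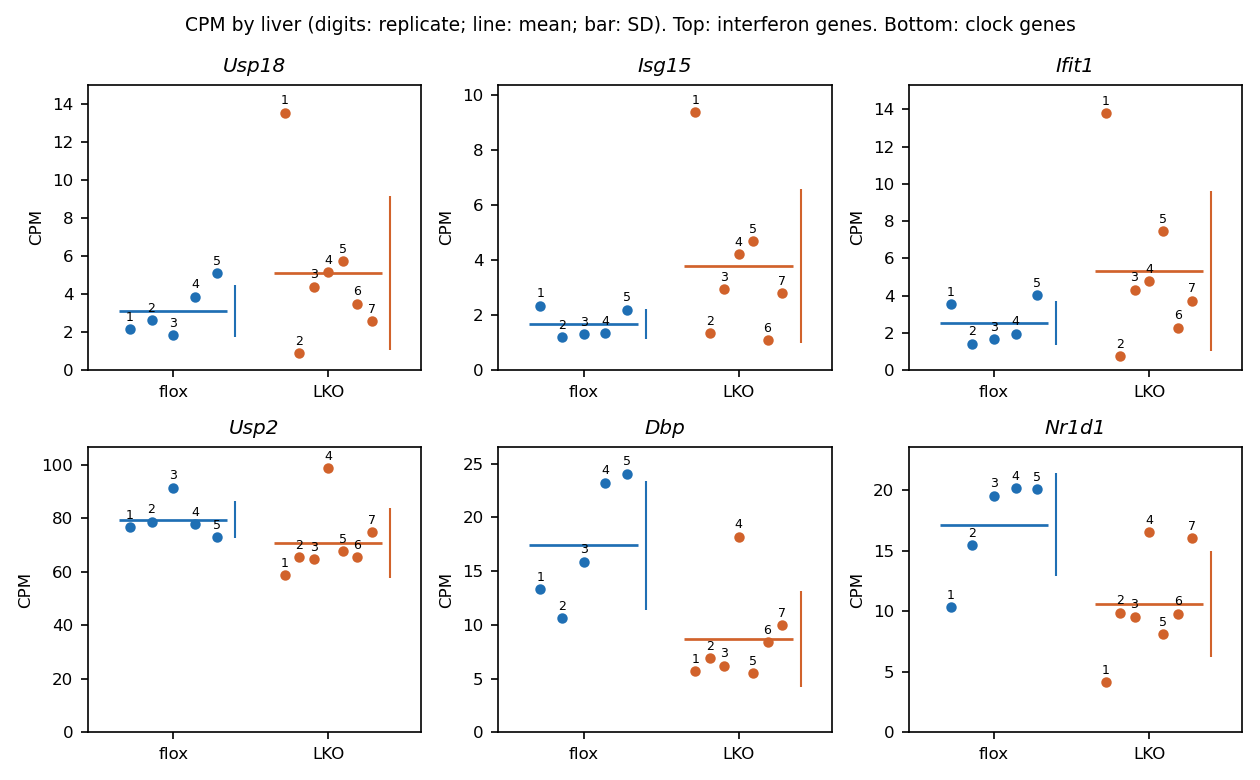
CPM by liver (points, with the replicate number) in the 5 flox and 7 LKO livers, with the group mean (horizontal line) and SD (vertical bar), for Usp18 beside Isg15 and Ifit1 and for Usp2 beside Dbp and Nr1d1, each panel on its own scale from 0. LKO replicate 1 tops the 3 interferon panels at 13.6, 9.36 and 13.8 CPM, and LKO replicate 4 tops the LKO livers in the 3 clock panels at 98.6, 18.2 and 16.5 CPM.

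For the enzymes of the proteasome and of free ubiquitin chains, the group means differed by less than the spread between livers. Usp14, which edits chains on the 19S particle of the proteasome, measured 52.0, 58.2, 53.2, 39.7 and 41.9 CPM in flox livers and 44.2 through 50.8 to 57.1 CPM in the LKO group. The 2 lowest livers were flox replicates 4 and 5, and the other flox livers lay within or just above the LKO range. It had a log2 fold change of 0.06 (SE 0.10, 95% confidence interval -0.16 to 0.27, adjusted p = 0.911), and -0.10 without those 2 livers. Usp5 measured 76.4 ± 8.09 and 78.0 ± 6.05 CPM, and its log2 fold change of 0.03 was -0.07 without them. Usp13, a close relative of Usp5, had 10 counts in all 12 livers together, at most 3 in one, and was not tested.

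Among the USPs that act on histones H2A and H2B and other chromatin proteins, 7 of 9 were tested, 2 had positive and 5 negative values, and the median was -0.05. Usp7, which deubiquitinates MDM2 and p53, measured 80.8 ± 8.02 CPM in flox and 84.8 ± 6.05 CPM in the LKO group (a log2 fold change of 0.07, or -0.03 when flox replicates 4 and 5 are left out). Usp22, the deubiquitinase of the SAGA coactivator, measured 39.2 ± 2.23 and 38.8 ± 3.12 CPM (-0.02). Usp3, Usp16 and Usp21, which act on ubiquitinated H2A, had log2 fold changes of 0.05, -0.05 and -0.05, and the low Usp27x and Usp49 had -0.07 and -0.10. Usp51 had 1 count in all, and Usp44, known for the mitotic checkpoint, had 0.

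The DNA damage and cell cycle enzymes were the largest group, with 10 tested, 6 above and 4 below 0, and a median of 0.03. Usp47 measured 164 ± 16.0 and 166 ± 11.8 CPM (log2 fold change 0.02, 95% confidence interval -0.14 to 0.18; -0.07 without flox replicates 4 and 5). Usp10 measured 139.8 ± 10.04 and 138.5 ± 13.6 CPM (-0.01, interval -0.18 to 0.16). Usp12 and Usp46, which are switched on by the WDR48 protein, had log2 fold changes of -0.03 and 0.16. Usp28, a stabiliser of MYC, had 0.08, Usp24 0.09, Usp37 0.13, Usp45 0.03, Usp48 -0.03 and Usp42 -0.11.

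In membrane traffic, Usp8 measured 70.2 ± 4.27 and 67.3 ± 6.55 CPM (log2 fold change -0.06), and Usp9x, an X-linked enzyme of endocytosis and polarity, 141 ± 9.53 and 147 ± 17.2 CPM (0.06). Usp33, which acts on receptors and centrosomes, had all 7 LKO livers above the flox mean, at 24.6 to 27.2 CPM, but the flox livers ran from 20.2 to 28.9 CPM on both sides of them (0.11, adjusted p = 0.760). Usp20 and Usp6nl had -0.05 and 0.17. In mitochondria and the endoplasmic reticulum, Usp19, an enzyme with a form anchored in the reticulum membrane, measured 81.9 ± 4.62 and 80.3 ± 5.94 CPM (-0.03). Usp30, which opposes mitophagy at the outer mitochondrial membrane, measured 19.4 ± 2.88 and 19.4 ± 1.84 CPM, with a log2 fold change whose 95% confidence interval ran from -0.22 to 0.22. Usp35 was low, at 2.29 ± 0.50 and 1.78 ± 0.53 CPM (-0.36, interval -0.89 to 0.18).

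Of the 7 enzymes of immune, TGF-beta and WNT signalling, 6 had positive values and 1 a negative value, with a median of 0.10. Usp15 measured 48.6 ± 4.40 and 52.1 ± 5.79 CPM (log2 fold change 0.10), and Usp25, a regulator of immune signalling, 54.98 ± 1.16 and 56.6 ± 4.57 CPM (0.04). Usp4, a close relative of Usp15, measured 84.2 to 92.3 CPM in flox livers and 89.7 through 93.0 to 104 CPM in the LKO group. All 7 LKO livers were above the flox mean, yet 3 of them were within the flox range. Its means were 88.5 ± 3.45 and 94.8 ± 5.44 CPM (0.10, 95% confidence interval -0.02 to 0.23, adjusted p = 0.701 in edgeR). Usp38, Usp34 and Usp31 had 0.18, 0.09 and 0.11. Usp11, X-linked and low in liver, had the lowest value of the 40 tested USP genes, -0.43 (interval -1.23 to 0.37, adjusted p = 0.803). It rested on flox replicate 5, at 1.77 CPM against 0.566 to 0.738 CPM in the other flox and 0.369 to 0.952 CPM in the LKO livers, and was 0.04 without flox replicates 4 and 5.

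Usp39 and Usp36, of splicing and the nucleolus, measured 22.0 ± 2.65 and 23.6 ± 2.70 CPM (log2 fold change 0.10) and 27.0 ± 3.79 and 25.9 ± 2.59 CPM (-0.06). Usp40 measured 43.6 ± 4.74 and 42.1 ± 5.03 CPM (-0.05). Usp54, on chromosome 14 from 13811094 to 13882073, measured 4.14, 4.81, 5.89, 6.46 and 8.11 CPM in flox livers and 3.70 through 4.65 to 5.35 CPM in the LKO group. All 7 LKO livers were below the flox mean, flox replicates 4 and 5 were the 2 highest, and flox replicates 1 and 2 lay within the LKO range. Its means were 5.88 ± 1.54 and 4.54 ± 0.55 CPM, with a log2 fold change of -0.37 (SE 0.17, 95% confidence interval -0.74 to -0.01, unadjusted p = 0.0437, adjusted p = 0.650, both from edgeR's fit over all genes). Without flox replicates 4 and 5, in which the neutrophil, macrophage, endothelial and stellate cell markers were high, it was -0.12 (adjusted p = 0.965), and their part in the value was not tested further.

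Usp50, a relative thought to lack protease activity, was too low to be tested but uneven. It had 1, 2, 3, 3 and 7 counts in flox livers and 2 through 11 to 25 counts in LKO livers. LKO replicates 1 to 4 held 11 to 25 counts, more than any flox liver, and LKO replicates 5 to 7 held 2 to 4, within the flox range. With no filter on low counts its log2 fold change was 1.93, with an adjusted p of 0.659 in edgeR and an unadjusted p under 0.05. Without flox replicates 4 and 5 it passed the filter, but only through LKO replicates 1 to 4, where its counts were high. Its log2 fold change of 2.49 in that fit (adjusted p = 0.903, edgeR) is therefore a description and no support for a difference. Usp50 was the 1 USP gene of 41 with an unadjusted p under 0.05 there, against 5.27% of all genes. Usp50 lies on chromosome 2 from 134067895 to 134151105 and overlaps Usp8, on the opposite strand, over 56239 bases. Usp8 ran from 64.6 to 76.4 CPM in flox and 59.4 to 75.2 CPM in the LKO group, and without a stated strand setting the reads of the pair cannot be told apart. The other untested genes were Usp43, with 30 counts in all and at most 7 in a liver, Usp26, a gene of the testis, and Usp17lb and Usp29. The last 3, like Usp44, had 0 counts in all 12 livers. A count of 0 in a single library allows for up to 3 expected counts there, and 0 in all 12 sets a tighter bound.

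**Figure D5:**
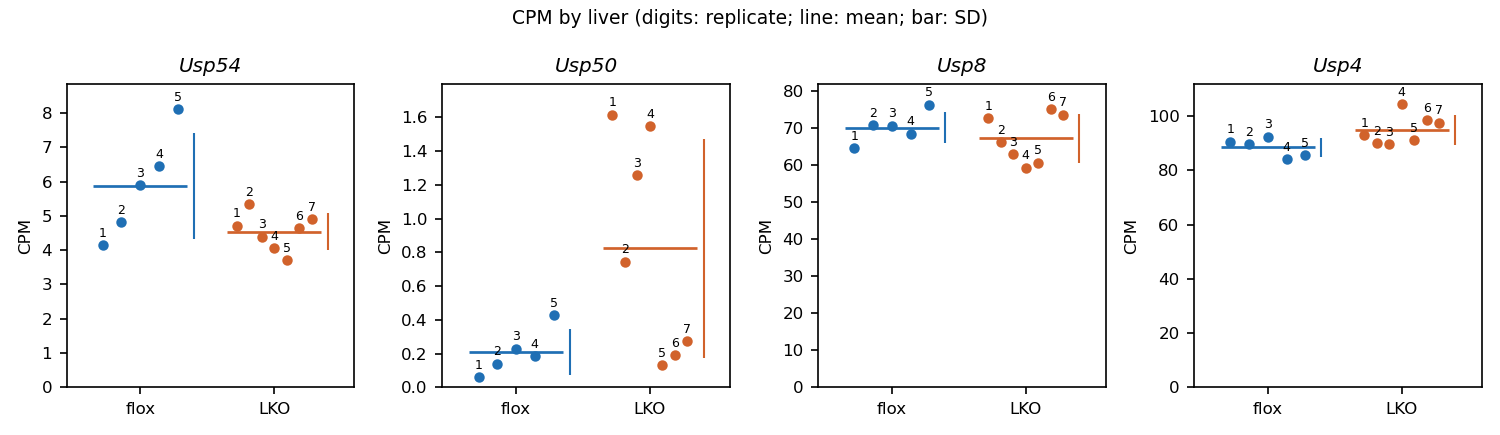
CPM by liver (points, with the replicate number), group mean (horizontal line) and SD (vertical bar) for Usp54, Usp50, Usp8 and Usp4, each panel on its own scale from 0. Flox replicates 4 and 5 are the highest for Usp54 (6.46 and 8.11 CPM), LKO replicates 1 to 4 lie above all flox livers for Usp50 and not for Usp8, and the 7 LKO points of Usp4 lie above the flox mean of 88.5 CPM.

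Overlapping genes touch other members as well. In the table, 25 USP genes, 21 of them tested, overlap another gene, and for 6 tested genes an opposite-strand neighbour had at least 10% of their CPM (Usp14, Usp40, Usp34, Usp45, Usp30 and Usp37). The overlap with that neighbour was short for Usp14, Usp45 and Usp40, at 53, 57 and 62 bases. It was 795 bases for Usp30, 2012 for Usp34 and 25880 for Usp37. Usp20 shares its strand and 45826 bases with Golga2, whose CPM was 305% of its own. Values of these genes are uncertain to the extent that reads were split between neighbours.

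Genes of the USP and other deubiquitinase folds without a Usp-and-digit name were read from the same fit, and not all of them encode deubiquitinases. Of 34 listed, 31 were in the table and 29 were tested, 0 passed the threshold, 14 had positive and 15 negative log2 fold changes, and the median was -0.01 (-0.07 without flox replicates 4 and 5). The smallest p-values belonged to Josd1, a Josephin-type enzyme, at 111 ± 6.96 CPM in flox and 98.8 ± 4.14 CPM in the LKO group (log2 fold change -0.17, adjusted p = 0.625), and Tnfaip3, the A20 inhibitor of NF-kappaB, at 5.96 ± 2.12 and 4.21 ± 0.62 CPM (-0.50, and -0.08 without flox replicates 4 and 5; adjusted p = 0.635). These 2 of the 29 had an unadjusted p under 0.05, against 7.64% of all genes tested. Tnfaip3 belongs to the OTU family, where Otud7b, also of NF-kappaB signalling, came next (adjusted p = 0.679). The log2 fold change of Otud7b was -0.15, and -0.08 without flox replicates 4 and 5. In the remaining families the smallest adjusted p was 0.708 for Uchl3, which processes ubiquitin and NEDD8. It was 0.768 for Uspl1, a SUMO protease of the USP fold, and 0.854 for Eif3h, a translation initiation subunit of the JAMM fold. Next in their families were Pan2 (0.860), Uchl5 (0.892), Cops5 (0.878) and Josd2 (0.890). Among USP partner proteins, 0 of 11 tested passed, 8 were above and 3 below 0, and the median was 0.12 (0.01 without those livers). Gmps, GMP synthetase and a partner of Usp7, measured 38.5 ± 0.79 and 44.3 ± 4.72 CPM (0.20, adjusted p = 0.625), and Eny2, a subunit of the SAGA module that holds Usp22, 32.4 ± 4.48 and 37.1 ± 2.30 CPM (0.19, and 0.08 without those livers; adjusted p = 0.650). Wdr48, which activates Usp12 and Usp46, measured 25.7 ± 1.77 and 25.9 ± 1.70 CPM. Of the ubiquitin genes only Rps27a, which encodes ubiquitin fused to a ribosomal protein, was analysed here, at 5.84 ± 2.28 and 4.97 ± 1.09 CPM (-0.23, and 0.09 without flox replicates 4 and 5; adjusted p = 0.837).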

How the data were processed

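Per the labels' protocols, liver RNA (TRIzol) of 5 flox and 7 LKO mice went into NEBNext Ultra RNA libraries. The authors deposited whole-number counts per gene, and FPKM values which equal, as checked, each count over its gene's length and 1 size per library. Per the submitters' processing notes, CASAVA 1.8, fastp, HISAT2 2.0.5, featureCounts 1.5.0-p3, DESeq2 1.20.0 and the build GRCm39 were named; the table's identifiers and positions follow the C57BL/6NJ strain annotation and are printed as given. For the strand setting and for shared reads, the sources used here give nothing. Loci without a symbol (612) held 1.36% to 1.95% of the counts.

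Genes were filtered with filterByExpr (12615 left), scaled by TMM and tested in R 4.3.3 by edgeR 4.0.16 (robust glmQLFit, then glmQLFTest, without covariates), with Benjamini-Hochberg adjustment over all genes and a threshold of 0.05. Fold changes are LKO over flox, CPM uses the scaled library sizes, and the permutation test of Ube4a ran over the 792 splits of the livers. The code was tested on simulated data. Levels between genes use FPKM only. Labels name separate mice and no batch, no pair of libraries in a group agreed within sampling noise, and total counts limit the precision of genes under 1 CPM.

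The alternatives were other scalings and count filters, DESeq2 1.42.0, limma 3.58.1 (voom with quality weights, and trend on log2(FPKM + 0.1) and log2(FPKM + 1)), non-robust dispersion, the replicate number as a block, and leaving out each liver. The fit without flox replicates 4 and 5 was added after the data had been seen. The members and lists were chosen with earlier results of these data known. Genes are described by a rule: members past the threshold or under an unadjusted p of 0.05, the 2 most abundant of each role, the 3 most abundant and the 3 with the largest fold change of all, the extremes of variation, untested members, Usp2, Usp18, Usp14, the 2 smallest p-values of each companion list, Isg15, Dbp and Ube4a. Other members, Wdr48, Tef and Arntl were added after their values were seen. Usp1, Usp32, Usp53, Usp9y and other listed genes without a row under that symbol were not analysed here.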

Additional observations from a re-analysis of the deposited data

Results flagged for a closer look

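Within a group of 5 or 7 livers, a liver was singled out where its gap to the nearest other liver, as a share of the group's range, went beyond Dixon's critical value at the 95% level. Of 82 groups examined, 11 did so, and chance gives about 1 in 20.

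Among flox livers, replicate 5 was high for Usp11, at 1.77 CPM with the next liver at 0.738 (share 0.857). Replicate 3 was high for Usp15 at 56.3 against 47.5 CPM (0.814) and for Usp37 at 11.4 against 7.99 CPM (0.798). Replicate 2 was high for Usp22 at 43.1 against 38.8 CPM (0.817).

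Among LKO livers, replicate 1 was high for Usp18 at 13.6 against 5.75 CPM (0.616) and low for Usp45 at 14.7 against 20.04 CPM (0.692). Replicate 4 was high for Usp2 at 98.6 against 74.8 CPM (0.598). Replicate 7 was high for Usp19 at 93.2 against 80.6 CPM (0.706), low for Usp3 at 29.4 against 34.2 CPM (0.585) and high for Ube4a at 34.0 against 26.8 CPM (0.665). Replicate 5 was high for Usp49 at 3.90 against 2.10 CPM (0.700). The reasons were not tested.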

How the results depend on the processing

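In every setting run, 0 USP genes passed the adjusted threshold, and the median log2 fold change of the USP genes stayed between -0.03 and 0.04, within the spread of 0.060 between livers. Ube4a was lower in each setting. The count of all genes past the threshold was 1 in most settings, 22 with DESeq2, 2 with the replicate block, and 1 to 2 when 1 liver was left out (2 without LKO replicate 7). Of 917 recomputed USP values, 867 kept their sign and 50 reversed; 19 genes kept their sign in all. Reversed values with the replicate block were 0.0125 for Usp12, 0.0185 for Usp21, -0.0156 for Usp25, 0.0353 for Usp30, -0.0138 for Usp45, -0.00267 for Usp47 and -0.0221 for Usp9x. Without flox replicates 4 and 5 they were 0.0403 for Usp11, 0.0517 for Usp12, -0.0978 for Usp14, -0.0486 for Usp28, -0.00486 for Usp45, -0.0728 for Usp47, -0.0738 for Usp5 and -0.0289 for Usp7. With voom they were 0.00995 for Usp10, -0.0249 for Usp18, 0.00518 for Usp36 and 0.0216 for Usp48. Usp47 reversed with total counts (-0.00535), and Usp30 with log2(FPKM + 0.1) (5.05e-05) and with no filter (0.00235). Leaving out 1 liver gave -0.0216 to 0.0593 for Usp47, -0.0549 to 0.0208 for Usp10, -0.023 to 0.0597 for Usp5, -0.0149 to 0.115 for Usp14, -0.115 to 0.00403 for Usp16, -0.0555 to 0.00998 for Usp22, -0.0738 to 0.00119 for Usp48, -0.106 to 0.026 for Usp36, -0.0293 to 0.114 for Usp45, -0.069 to 0.0442 for Usp30, -0.115 to 0.0266 for Usp20, -0.332 to 0.0246 for Usp49 and -0.138 to 0.0944 for Usp27x. The causes were not tested. Correlations between the deviations of same-numbered livers ran from -0.299 to 0.113, with 1 of 5 pairs over 0.1. Only replicate 3 matched its own number best, so the numbers were not taken as pairs. Replicates are separate mice of unstated litter, and values rest on 5 flox livers, 2 of which stood apart.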
